A study of Rosa rugosa with 9 samples.

Results

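The genes described here are those of *Rosa rugosa* whose best Swiss-Prot description names a step in the making or decoration of flavonoids and anthocyanins. They were chosen by words in that description (chalcone, naringenin, flavanone, flavonol, flavonoid, flavone or anthocyanidin). The rule uses no expression value, but it was chosen with earlier results of these data known. The words matched 111 of the 47983 genes in the table. RNA came from young roots of the cultivar 'Zizhi' after 37 weeks of sand culture in pots, with 3 libraries in each of 3 groups. Plants of the HA2 group were fed 0.0368 g of ammonium dihydrogen phosphate together with 0.0552 g of humic acid. The HA1 group was given 0.0552 g of that salt plus 0.0368 g of humic acid, and the CK group 0.092 g of it without humic acid. Humic acid, phosphorus and ammonium therefore changed together between the groups, and their parts in any difference cannot be told apart.

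Flavonoids are built from a chalcone, made by chalcone synthase from coumaroyl-CoA and malonyl-CoA, which chalcone isomerase closes into a flavanone. Hydroxylases and dihydroflavonol 4-reductase then lead to leucoanthocyanidins, from which leucoanthocyanidin reductase makes catechin, while leucoanthocyanidin dioxygenase and anthocyanidin reductase together lead to epicatechin. Catechin and epicatechin are the units of proanthocyanidins, the condensed tannins that accumulate in roots of many woody plants of the rose family, and anthocyanins arise when sugars are attached to anthocyanidins.

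By their descriptions, 31 of the 111 genes belonged to core enzyme families that build the ring system: 12 flavonoid 3'-hydroxylases, 4 each of anthocyanidin reductases, dihydroflavonol 4-reductases and flavonol synthases, 3 flavanone 3-hydroxylases, 2 chalcone isomerases, 1 leucoanthocyanidin reductase and 1 leucoanthocyanidin dioxygenase. The other 80 comprised 56 sugar transferases, 17 genes described as isoflavone enzymes, 4 methyltransferases and 3 others. A description is the name of the closest annotated protein, often from strawberry, licorice or cassava, and does not show the enzyme's substrate. For 8 of the 111 genes the best match among all proteins was itself a *Rosa rugosa* protein, and these included the chalcone isomerase 1, flavanone 3-hydroxylase, leucoanthocyanidin reductase and anthocyanidin reductase genes described here. Only 19 of the 111 genes stood among the 143 genes that the deposited annotation places in KEGG flavonoid biosynthesis, which is 17.1% of the 111 and 13.3% of the KEGG list. None of the 111 was described as chalcone synthase, and the genes closest to that role are given with the pathway genes outside the list.

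The 9 libraries held 33847262 to 42988605 counts each. Whether libraries of a group came from separate plants is not stated in the labels, so a p-value reflects only how far these samples spread, which may be technical. On the first principal component of all genes, which carried 43.9% of the variance, the value of HA2 replicate 3, -45.8, fell inside the span of the CK libraries, -131 to -42.3. Casparian strip membrane protein 1 (Rru03G023310), which marks the endodermis, had 46.3 to 118 FPKM over the 9 libraries, and the 6 endodermis markers summed to 62.2 to 166 FPKM. Of 10 root hair markers 5, expansin-A7 (Rru07G020430) among them, were listed at 0 in all libraries. The list summed to 105 to 138 FPKM in HA2, 115 to 127 FPKM in HA1 and 101 to 157 FPKM in CK libraries, from 4 genes described as ROOT HAIR DEFECTIVE 3 or its homolog 2. The 35 green tissue markers summed to 68.0 to 215 FPKM in HA2, 102 to 153 FPKM in HA1 and 179 to 416 FPKM in CK libraries, mostly from 1 rubisco small chain gene (Rru04G014250, mean 167 FPKM), and 5 of the 35 were at 0 throughout. Within CK this sum was lowest in replicate 1. The 6 xylem markers summed to 111 to 155 FPKM in HA2, 124 to 131 FPKM in HA1 and 158 to 225 FPKM in CK libraries. The 14 phloem markers summed to 63.7 to 178 FPKM in HA2, 88.0 to 141 FPKM in HA1 and 108 to 173 FPKM in CK. For the 18 markers of dividing cells the sums were 169 to 321, 211 to 313 and 223 to 266 FPKM. Both sums were lowest of all in HA2 replicate 3, and within each group highest in replicate 1. The part of these tissues in the results was not tested. In bulk roots, fewer cells of a type and less RNA per cell cannot be told apart.

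Expression was concentrated in few of the 111 genes. On the FPKM scale, which divides by gene length, 20 genes averaged at least 10 FPKM over the 9 libraries and 61 averaged under 1 FPKM. Counts were 0 in every library for 16 genes. In all, 69 genes passed the filter on low counts and were tested, and none of the 42 left out averaged more than 0.138 FPKM. The 111 genes held 0.456%, 0.347% and 0.153% of all counts in HA2 libraries 1 to 3, 0.265%, 0.222% and 0.204% in HA1 libraries, and 0.648%, 0.367% and 0.247% in CK libraries.

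Of the 9 genes with the highest mean FPKM, 8 had descriptions of steps towards catechin and epicatechin, and the other, the highest of all, was described as 2-hydroxyisoflavanone dehydratase (Rru04G029720). Below them stood a further gene of that last description (Rru04G029730) at 63.5 FPKM, a glucosyltransferase (Rru06G009780) at 40.0 FPKM and an isoflavone reductase homolog (Rru07G030960) at 32.6 FPKM. Mean levels over the 9 libraries were 292 FPKM for flavanone 3-hydroxylase (Rru02G014250), which adds a hydroxyl group to flavanones, and 134 FPKM for flavonoid 3'-monooxygenase (Rru07G005450), which hydroxylates the B ring. They were 255 and 83.8 FPKM for 2 dihydroflavonol 4-reductases (Rru06G052600 and Rru06G052630), which reduce dihydroflavonols to leucoanthocyanidins. Leucoanthocyanidin reductase (Rru04G046630) averaged 225 FPKM and anthocyanidin reductase (Rru05G003990) 158 FPKM. Leucoanthocyanidin dioxygenase (Rru07G020520), the step that feeds anthocyanidin reductase, averaged 8.53 FPKM and was not among the 20 genes with at least 10 FPKM. Flavonol synthases and methyltransferases lay near the bottom of the scale: the highest flavonol synthase (Rru02G002700) averaged 0.373 FPKM, and the highest methyltransferase (Rru04G041710) averaged 0.131 FPKM and was not tested. Of the 3 other genes the most abundant (Rru06G033530), described as 6'-deoxychalcone synthase, averaged 4.77 FPKM. The closest match of that flavonol synthase among all proteins was named codeine O-demethylase-like.

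A set of 10 leading core genes held 66.0% of the FPKM of all 111. It took the most abundant gene of each core step other than flavonol synthase, and 3 further core genes with at least 10 FPKM. By description it thus held 2 chalcone isomerases (1 of them only a probable one), the flavanone 3-hydroxylase, the flavonoid 3'-monooxygenase, 3 dihydroflavonol 4-reductases, the leucoanthocyanidin dioxygenase and both reductases. The set was assembled after the values were seen. The summed level of the 10 genes was 1974, 1290 and 379 FPKM in HA2 libraries 1 to 3, 1107, 784 and 637 FPKM in HA1 libraries, and 3444, 1697 and 1018 FPKM in CK libraries. CK replicate 1 stood highest of all libraries, HA2 replicate 3 lowest, and the 3 HA1 libraries lay within the span of the other groups.

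**Figure D1:**
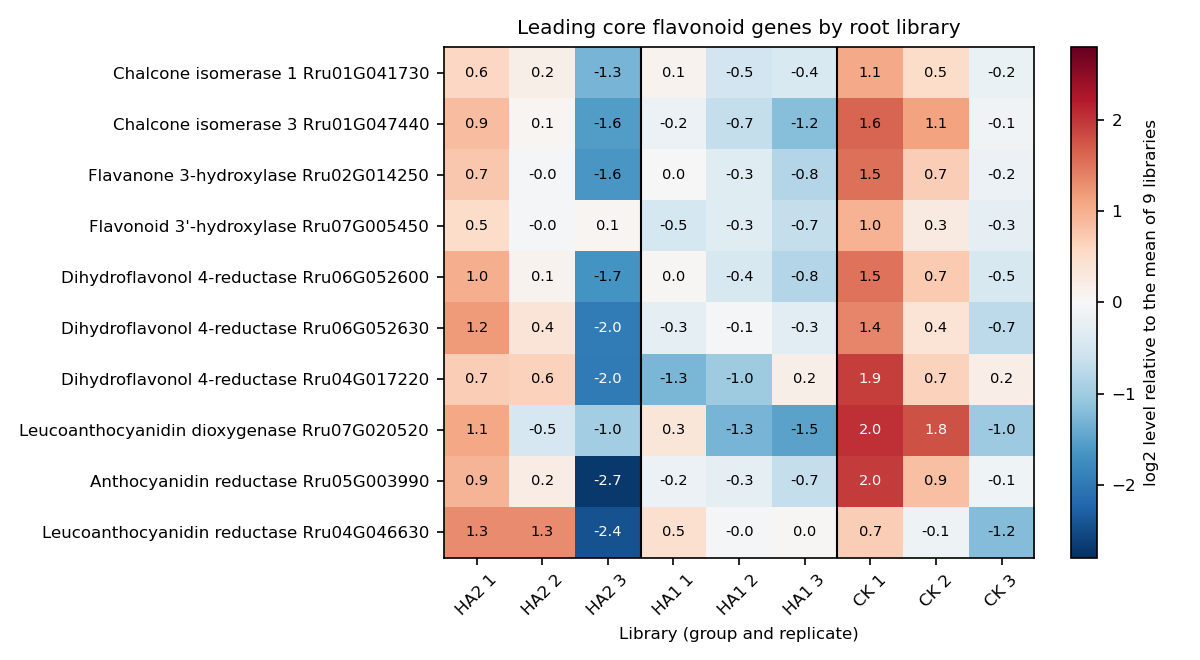
Each row is 1 of the 10 leading core genes and each column 1 root library, ordered HA2, HA1 and CK. Colour and number give the log2 level (TMM-scaled CPM) relative to the gene's mean over the 9 libraries. CK replicate 1 is the highest library in 9 of 10 rows and HA2 replicate 3 the lowest in 8 of 10, so the genes vary together by library within groups.

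Within CK the 10 genes differed far more between libraries than most genes did. The highest CK library exceeded the lowest by 2.35-fold to 9.17-fold, with a median of 3.60-fold, where the median over all tested genes was 1.56-fold and over the 8383 tested genes with at least 10 FPKM 1.40-fold. CK replicate 1 was the highest CK library for all 10 genes and CK replicate 3 the lowest for all 10. In HA2, replicate 1 was highest for 9 genes and replicate 3 lowest for 9, and in HA1 these numbers were 7 and 7.

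HA1 set against CK shows the roots under the moderate replacement of phosphate by humic acid. In the quasi-likelihood test of edgeR, adjusted by Benjamini-Hochberg over all genes, 15 of the 69 tested flavonoid genes passed a threshold of 0.05, where 21.2% of all tested genes passed. The 15 genes are 21.7% of the 69, which is close to that background. Of them 5 rose (7.25% of the 69, against 10.9% of all tested genes) and 10 fell (14.5%, against 10.3%). The median log2 fold change of the 69 genes was -0.44, and -0.02 over all tested genes. In the core families 3 of 26 tested genes fell and none rose, and the median was -1.02. Outside the core 5 of 43 rose and 7 fell, with a median of -0.09. Group ranges did not overlap for 27 of the 69 genes, where this held for 45% of all tested genes; 8 lay higher in HA1 (22.7% of all genes) and 19 lower (22.3%). DESeq2 called 21 of the 69, where it called 30.5% of all genes. All 15 edgeR calls were lost without CK replicate 1, when no gene of the whole table passed, and 2 calls were left without CK replicate 3. Without HA1 replicates 1, 2 and 3 in turn, 5, 3 and 5 flavonoid genes passed.

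None of the 10 leading core genes passed in HA1 by edgeR, although 9 of the 10 had negative fold changes. DESeq2 called 4 of them lower, where it called 30.5% of all genes in either direction. Its share of lower calls alone is not given here. Chalcone isomerase 3 (Rru01G047440), described as a probable chalcone isomerase, had 132, 93.3 and 64.7 CPM in HA1 libraries against 455, 323 and 138 CPM in CK libraries. All HA1 values lay below all CK values, the lowest CK value being close to the highest of HA1. Its log2 fold change was -1.66 ± 0.61 (SE, n = 3 each), with an adjusted p of 0.080 by edgeR and 0.0188 by DESeq2. That it acts as an isomerase is not shown by its description. Chalcone isomerase 1 (Rru01G041730) had 89.9, 57.8 and 61.9 CPM in HA1 libraries against 173, 120 and 73.5 CPM in CK libraries. These groups overlapped, and its log2 fold change was -0.81 ± 0.47 (edgeR adjusted p = 0.23). The flavanone 3-hydroxylase had 374, 292 and 208 CPM in HA1 libraries against 1080, 594 and 330 CPM in CK libraries. The groups overlapped, since the lowest CK library lay below the highest HA1 library, and the log2 fold change of -1.20 ± 0.59 had an adjusted p of 0.17 by edgeR, 0.095 by DESeq2 and 0.023 by DESeq2 without HA2 replicate 3. Its largest adjusted p in any alternative fit by edgeR or DESeq2 was 0.48.

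The flavonoid 3'-monooxygenase had 186, 207 and 163 CPM in HA1 libraries and 509, 311 and 216 CPM in CK libraries. Every HA1 library lay below every CK library, by a narrow margin at CK replicate 3. The log2 fold change was -0.90 ± 0.31 (SE, n = 3 each), with an adjusted p of 0.070 by edgeR and 0.0299 by DESeq2. The more abundant dihydroflavonol 4-reductase (Rru06G052600) had 352, 253 and 195 CPM in HA1 libraries and 997, 569 and 251 CPM in CK libraries. The groups overlapped at CK replicate 3, which lay between the HA1 libraries, and the log2 fold change of -1.18 ± 0.66 had an adjusted p of 0.22 by edgeR, 0.13 by DESeq2 and 0.041 by DESeq2 without HA2 replicate 3. Its largest adjusted p in any alternative fit by edgeR or DESeq2 was 0.56.

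Leucoanthocyanidin dioxygenase had 13.3, 3.94 and 3.36 CPM in HA1 libraries against 44.6, 37.3 and 4.87 CPM in CK libraries. CK replicate 3 lay at the level of the HA1 libraries and far below the other 2 CK libraries. The log2 fold change was -2.07 ± 0.88 (SE, n = 3 each), with an adjusted p of 0.12 by edgeR and 0.0305 by DESeq2. Anthocyanidin reductase had 114, 107 and 80.7 CPM in HA1 libraries against 501, 233 and 118 CPM in CK libraries. All HA1 values lay below all CK values, and the log2 fold change of -1.50 ± 0.78 had an adjusted p of 0.19 by edgeR, 0.093 by DESeq2 and 0.0068 by DESeq2 without HA2 replicate 3. Over the alternative fits by edgeR or DESeq2 its log2 fold change ran from -1.91 to -0.81, with a largest adjusted p of 0.52. A gene described as dihydroflavonol 4-reductase (Rru04G017220), whose closest match among all proteins was named cinnamoyl-CoA reductase-like, had a log2 fold change of -1.73 ± 0.74 with an adjusted p of 0.12 by edgeR and 0.0394 by DESeq2. Chalcone isomerase 3 and Rru04G017220 passed by edgeR without HA2 replicate 3, but their largest adjusted p in any alternative was 0.23 and 0.36. Counting these, 4 of the 10 genes were lower in every HA1 library than in any CK library, where this held for 22.3% of all tested genes. For each of the 9 genes with a negative value the sign was the same in all 17 alternative settings.

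Leucoanthocyanidin reductase did not share this order. It had 509, 364 and 378 CPM in HA1 libraries against 599, 335 and 160 CPM in CK libraries. The HA1 libraries lay within the CK range, and the log2 fold change was 0.19 ± 0.78 (SE, n = 3 each), with an adjusted p of 0.88 by edgeR. Its sign turned to -0.20 without CK replicate 3. Its level relative to anthocyanidin reductase in the same library was compared because of this difference, a choice made after the values were seen. The ratio of their FPKM values was 2.08, 3.48 and 1.96 in HA2 libraries, 2.48, 1.90 and 2.61 in HA1 libraries, and 0.665, 0.801 and 0.757 in CK libraries. Every library of HA2 and HA1 lay above 1 and every CK library below 1, and the ratio also separated HA2 replicate 3 from CK, although both genes were at their lowest there.

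**Figure D2:**
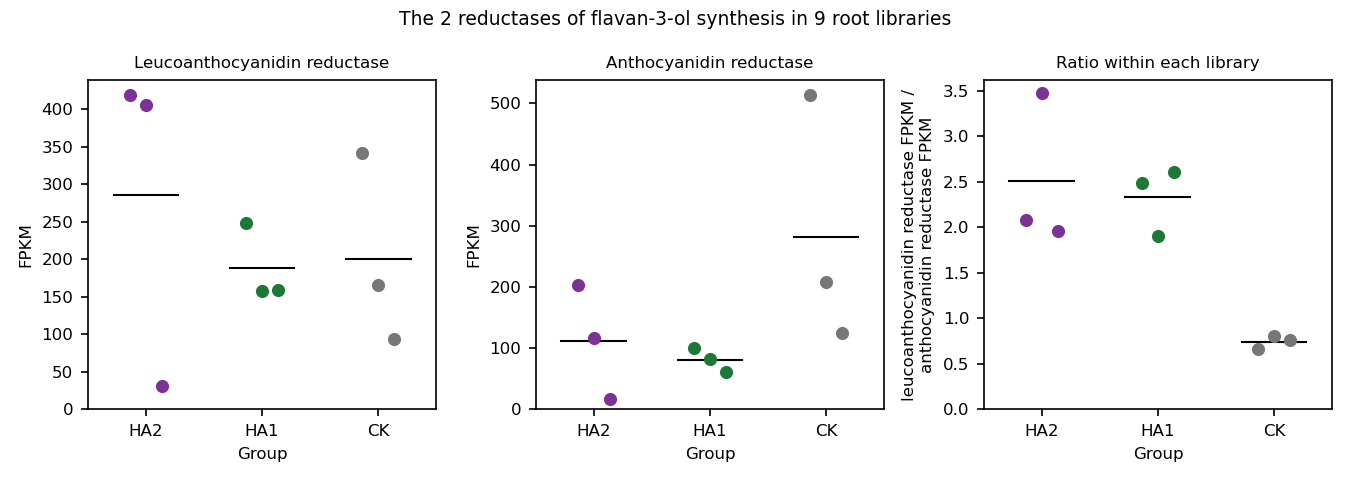
The panels show leucoanthocyanidin reductase (FPKM), anthocyanidin reductase (FPKM) and their ratio within each library; points are libraries of HA2, HA1 and CK and bars are group means. The ratio lies at 1.90 to 3.48 in the HA2 and HA1 libraries and at 0.665 to 0.801 in the CK libraries, while each gene alone overlaps between HA2 and CK.

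The mean ratio was 2.50 ± 0.84 in HA2 and 0.741 ± 0.069 in CK, which is 3.38 times as high (SD, n = 3 each). It was 2.33 ± 0.38 in HA1, or 3.15 times the CK mean. With 3 against 3 libraries an exact two-sided permutation test cannot go below 0.1. The separation was not particular to this gene. In HA1 43.1% of all tested genes, and in HA2 13.4%, had a ratio to anthocyanidin reductase above every CK library. Relative to each of the other 9 core genes, leucoanthocyanidin reductase was higher in all HA1 libraries than in any CK library in 9 of 9 cases, and in HA2 in 4 of 9. These 9 ratios share 1 numerator and their denominators vary together, so they do not count as repeated support. For denominators other than anthocyanidin reductase the share of all tested genes was not counted. Relative to the flavonoid 3'-monooxygenase, the ratio of leucoanthocyanidin reductase was 2.51, 3.74 and 0.255 in HA2 libraries against 1.20, 1.10 and 0.752 in CK libraries, and HA2 replicate 3 lay below all of CK.

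The 3 core genes that fell in HA1 all belonged to a group of 9 genes described as flavonoid 3'-monooxygenase CYP75B137, a cytochrome P450 named from *Crocosmia*. All 9 carry gene numbers close to each other, and the deposited annotation gives them another enzyme number than the abundant flavonoid 3'-monooxygenase has, so their substrate is uncertain. They were low, the highest (Rru07G021690) averaging 4.78 FPKM. In HA1 3 of the 9 fell, where 10.3% of all tested genes fell, and the other 6 also had negative values. Rru07G021930 had 0.548, 1.20 and 0.373 CPM in HA1 libraries against 1.63, 2.30 and 2.16 CPM in CK libraries, with no overlap, and fell by 1.52 ± 0.43 on the log2 scale (edgeR adjusted p = 0.037). Rru07G021680 had 5.07, 7.58 and 4.94 CPM in HA1 libraries against 17.0, 10.8 and 18.6 CPM in CK libraries. These groups did not overlap either, and the gene fell by 1.40 ± 0.40 (edgeR adjusted p = 0.039). Rru07G021970 fell by 1.03 ± 0.32 (edgeR adjusted p = 0.048). The 3 calls were kept in 3, 4 and 2 of the 9 fits that left out 1 library, in the order given.

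**Figure D3:**
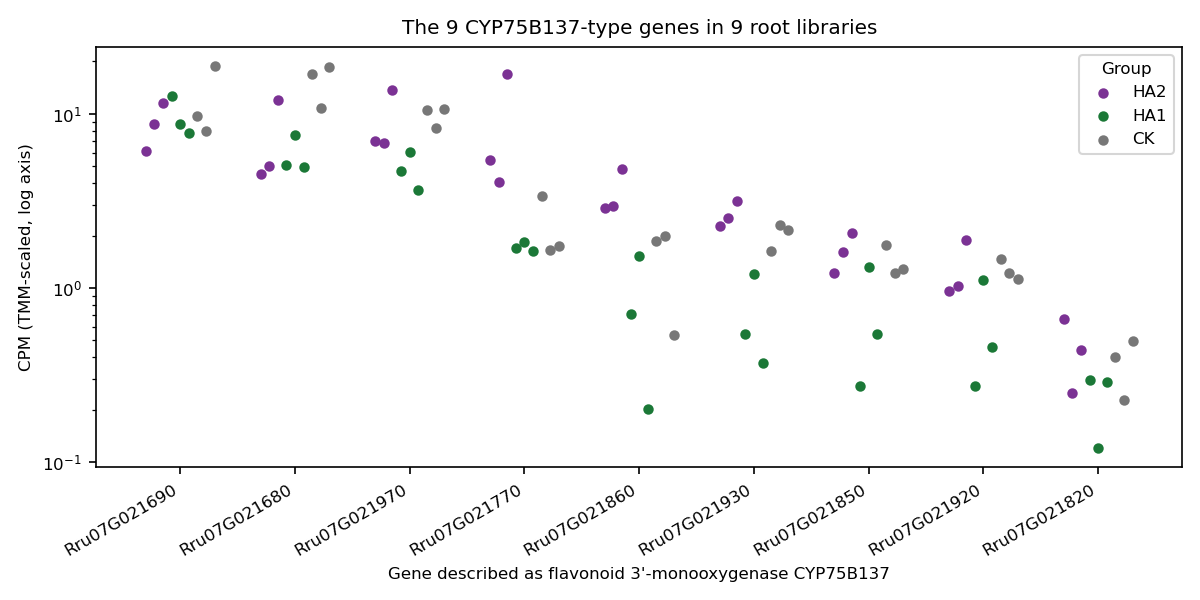
Points give TMM-scaled CPM on a log axis for the 9 genes described as CYP75B137, ordered by mean FPKM, in HA2, HA1 and CK libraries from left to right within each gene. In Rru07G021770 and Rru07G021930 every HA2 library lies above every HA1 library, at 4.08 to 17.0 CPM against 1.64 to 1.84 CPM in the first and at 2.26 to 3.14 CPM against 0.373 to 1.20 CPM in the second.

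Sugar transferases, which attach glucose or galactose to flavonols and anthocyanidins and so make them soluble, were the largest role group. Of 56 genes 27 were tested, and 4 rose and 4 fell in HA1, where 10.9% of all tested genes rose and 10.3% fell. The median log2 fold change was 0.12. Among 19 genes described as UDP-glucose flavonoid 3-O-glucosyltransferase 7, named from strawberry, 7 were tested, and 2 rose and 2 fell. Rru06G009840 had 4.98, 6.05 and 6.98 CPM in HA1 libraries against 0.637, 1.73 and 1.08 CPM in CK libraries. The groups lay far apart, and the gene rose by 2.39 ± 0.39 on the log2 scale (SE, n = 3 each, edgeR adjusted p = 0.010). Rru06G009860 had 21.8, 16.6 and 21.2 CPM in HA1 libraries against 4.33, 5.84 and 5.03 CPM in CK libraries. It rose by 1.97 ± 0.33 (edgeR adjusted p = 0.011). Both calls were kept in 8 of 9 fits that left out 1 library, and their largest adjusted p in any alternative was 0.0506 and 0.0528.

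Other genes of the same description, with nearby gene numbers, lay lower in HA1. Rru06G009670 had 2.40, 3.10 and 3.65 CPM in HA1 libraries against 12.7, 7.85 and 13.3 CPM in CK libraries, and Rru06G009660 had 0.365, 0.542 and 0.603 CPM in HA1 libraries against 3.97, 0.964 and 2.63 CPM in CK libraries. In both genes the groups did not overlap. They fell by 1.89 ± 0.39 (edgeR adjusted p = 0.016) and by 2.33 ± 0.61 (edgeR adjusted p = 0.030). The most abundant gene of this description, Rru06G009780 at a mean of 40.0 FPKM, had 31.7, 57.7 and 87.8 CPM in HA1 libraries against 38.0, 68.8 and 34.1 CPM in CK libraries and did not pass (edgeR adjusted p = 0.59). Its closest match among all proteins was named scopoletin glucosyltransferase-like. How reads shared by near-identical copies were counted is not given in the sources used here, so values of single copies in such clusters are uncertain.

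Anthocyanidin 3-O-glucosyltransferase 5 genes, named from cassava, also differed in direction. Of 8 tested among 11, 2 rose and 1 fell in HA1, where 10.9% of all tested genes rose and 10.3% fell. Rru02G017400 had 15, 14.2 and 23.6 CPM in HA1 libraries against 55.8, 41.8 and 71.0 CPM in CK libraries, without overlap, and fell by 1.68 ± 0.37 on the log2 scale (edgeR adjusted p = 0.019). The gene with the preceding number, Rru02G017390, had 3.99, 4.0 and 6.43 CPM in HA1 libraries against 1.55, 1.45 and 0.823 CPM in CK libraries and rose by 1.91 ± 0.54 (edgeR adjusted p = 0.038). Rru05G065750 rose by 1.43 ± 0.33 (edgeR adjusted p = 0.022). The 1 tested gene described as anthocyanidin 3-O-galactosyltransferase F3GT1 (Rru04G006240), an enzyme that in kiwifruit adds galactose to cyanidin, had 22.5, 12.3 and 9.39 CPM in HA1 libraries against 87.6, 49.2 and 25.9 CPM in CK libraries. All HA1 libraries lay below all CK libraries, and it fell by 1.88 ± 0.52 (edgeR adjusted p = 0.035). These 4 calls were lost in 4 to 7 of the 9 fits that left out 1 library.

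**Figure D4:**
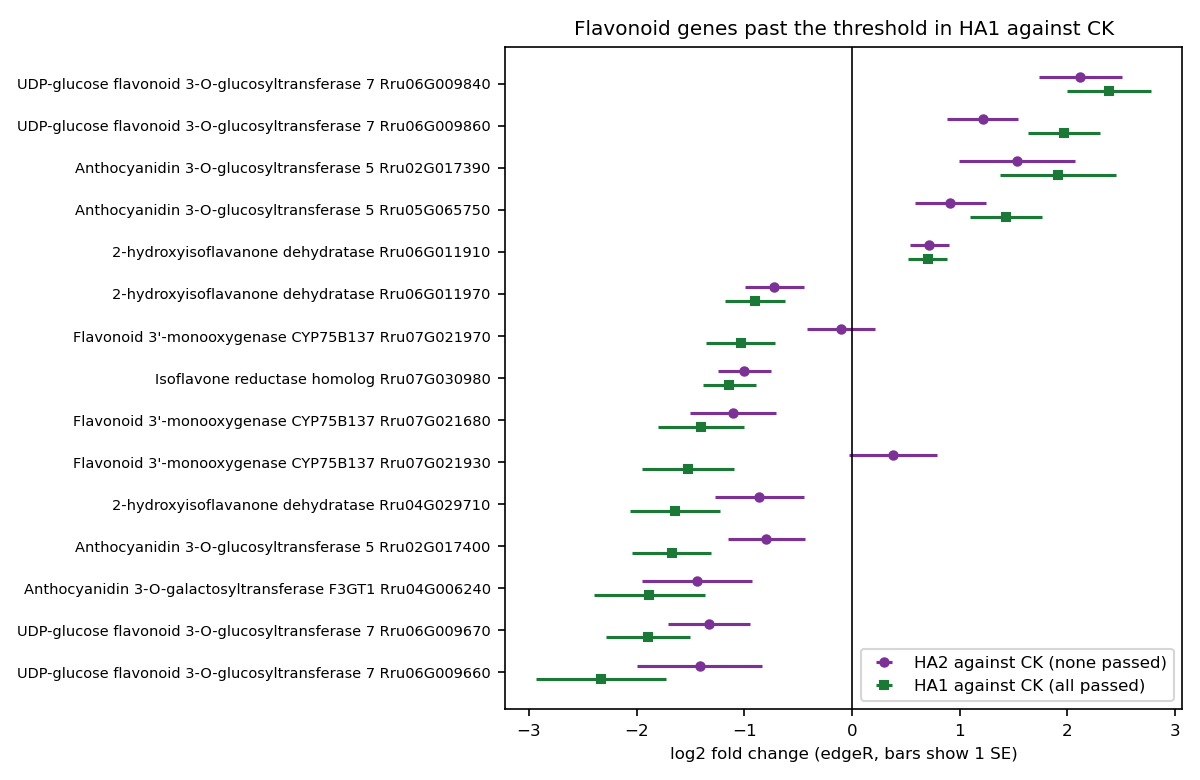
Points give the log2 fold change of HA2 against CK (circles) and HA1 against CK (squares) by edgeR with 1 SE to each side, for the 15 flavonoid genes past the threshold in HA1 against CK, sorted by the HA1 value. The 5 genes that rose span 0.70 to 2.39 and the 10 that fell span -2.33 to -0.90 in HA1; no gene passed in HA2.

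Among the genes described as isoflavone enzymes, 1 of 15 tested genes rose and 3 fell in HA1. Of all tested genes 10.9% rose and 10.3% fell. Many are described as 2-hydroxyisoflavanone dehydratase from licorice, a carboxylesterase-like enzyme of isoflavone synthesis in legumes, and several had a tuliposide A-converting enzyme as closest match among all proteins, so a role in isoflavone synthesis in rose is not shown by the name. Rru04G029720 was the most abundant of all 111 genes, at a mean of 312 FPKM. It had 652, 720 and 233 CPM in HA2 libraries, 307, 489 and 463 CPM in HA1 libraries, and 152, 200 and 58.7 CPM in CK libraries. Every HA2 and HA1 library lay above every CK library. The log2 fold changes were 1.97 ± 0.52 in HA2 (edgeR adjusted p = 0.13) and 1.62 ± 0.52 in HA1 (edgeR adjusted p = 0.053), so neither passed. DESeq2 called both, with adjusted p of 0.0039 in HA2 and 0.0074 in HA1. Without HA2 replicate 3 edgeR also called both, with adjusted p of 0.029 in HA2 and 0.025 in HA1.

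Rru06G011910, of the same description, had 17.6, 22.5 and 22.8 CPM in HA1 libraries against 13.2, 12.2 and 13.2 CPM in CK libraries and rose by 0.70 ± 0.18 on the log2 scale (edgeR adjusted p = 0.028). Rru04G029710, next in number to the most abundant gene, had 13.4, 10.6 and 6.49 CPM in HA1 libraries against 43.1, 29.9 and 22.3 CPM in CK libraries and fell by 1.64 ± 0.42 (edgeR adjusted p = 0.029). Neither gene overlapped between the groups, and they moved in opposite directions. Rru06G011970 fell by 0.90 ± 0.28 (edgeR adjusted p = 0.047). An isoflavone reductase homolog (Rru07G030980), named from lupin, had 6.05, 3.88 and 5.57 CPM in HA1 libraries against 14.6, 9.33 and 10.2 CPM in CK libraries and fell by 1.14 ± 0.25 (edgeR adjusted p = 0.019).

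The comparison of HA2 with CK concerns the higher replacement. None of the 69 tested flavonoid genes passed by edgeR, where 0.00396% of all tested genes, 1 gene, passed. At an unadjusted p under 0.05 there were 19 flavonoid genes, where 20.7% of all tested genes reached it; 13 of the 19 had positive values (12.3% of all genes) and 6 negative values (8.42%). DESeq2 called 9 of the 66 genes to which it gave an adjusted p where it called 9.18% of all genes. Of the 9, 7 were higher (6.81% of all genes) and 2 lower (2.37%). Group ranges did not overlap for 13 of the 69 genes (21.8% of all tested genes), with 9 higher (11%) and 4 lower (10.8%). The median log2 fold change of the 69 was -0.20, against -0.03 over all tested genes. Without HA2 replicate 3 edgeR called 8 flavonoid genes and 1834 of all genes. Without CK replicate 2 it called 2 and 1421. Deviations of same-numbered libraries of HA2 and CK from their group means correlated at 0.11 to 0.32, although the labels state no pairing. With the replicate number as a block over all 9 libraries, 0 flavonoid genes and 0 of all genes passed. The block over the 6 libraries of HA2 and CK alone gave the same.

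Rru06G009840 had 5.39, 6.13 and 3.44 CPM in HA2 libraries against the CK values given above, a log2 fold change of 2.12 ± 0.39 (edgeR adjusted p = 0.13), and an adjusted p of 4.9e-05 by DESeq2. Rru06G009860 had 15.5, 13.8 and 6.02 CPM in HA2 libraries, all above CK by a narrow margin at replicate 3, and a log2 fold change of 1.21 ± 0.33 (edgeR adjusted p = 0.13). Rru06G051830, an anthocyanidin 3-O-glucosyltransferase 5, had 50.2, 41.9 and 32.6 CPM in HA2 libraries, 11.2, 16.8 and 26.0 CPM in HA1 libraries, and 14.9, 23.0 and 17.9 CPM in CK libraries. All HA2 libraries lay above all others, and the log2 fold change of HA2 against CK was 1.16 ± 0.32 (edgeR adjusted p = 0.13).

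The 10 leading core genes had adjusted p from 0.391 to 0.886 in HA2 against CK by edgeR, and the group ranges overlapped for all 10. Fold changes were negative in 9 of the 10. In 7 of the 10 the HA2 library was lower than the CK library of the same number in all 3 pairs. The labels do not state such pairs, and the share of all tested genes for which this held was not counted. The 10 genes were chosen after the values were seen and vary together by library, so the 7 are not separate observations. With the replicate block over the 6 libraries the edgeR adjusted p ran from 0.11 to 0.79. Anthocyanidin reductase had 248, 148 and 19.3 CPM in HA2 libraries against 501, 233 and 118 CPM in CK libraries. Replicate 3 lay far below the other HA2 libraries, and the log2 fold change was -1.03 ± 0.77 (SE, n = 3 each). Leucoanthocyanidin reductase had 925, 927 and 68.1 CPM in HA2 libraries against 599, 335 and 160 CPM in CK libraries, so HA2 held both the highest and the lowest values. Its log2 fold change was 0.81 ± 0.79 (edgeR adjusted p = 0.59), and by DESeq2 without HA2 replicate 3 it was 1.37 (adjusted p = 0.024).

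Between HA2 and HA1 no gene of the table passed by edgeR, a background of 0%. At an unadjusted p under 0.05 there were 9 flavonoid genes (16.1% of all tested genes), 8 of them with positive values (7.7%). Group ranges did not overlap for 11 genes (24.3%), with 8 higher in HA2 (10.1%) and 3 lower (14.1%). DESeq2 called 4 flavonoid genes, all higher in HA2, where it called 4.2% of all genes, 1.91% as higher. These were the 3 CYP75B137-type genes Rru07G021770, Rru07G021930 and Rru07G021860 and the glucosyltransferase Rru06G051830, of which Rru07G021860 is named after its value was seen. Rru07G021770 had 5.45, 4.08 and 17.0 CPM in HA2 libraries against 1.69, 1.84 and 1.64 CPM in HA1 libraries, without overlap, and a log2 fold change of 2.36 ± 0.55 (edgeR adjusted p = 0.18). Replicate 3 was the highest HA2 library by far, and without it the log2 fold change was 1.47 by edgeR (adjusted p = 0.26) and 1.49 by DESeq2 (adjusted p = 0.029). The CK libraries had 3.40, 1.64 and 1.74 CPM, 2 of them near the HA1 values and 1 above. The flavonoid 3'-monooxygenase had 374, 252 and 272 CPM in HA2 libraries against 186, 207 and 163 CPM in HA1 libraries. All HA2 libraries lay above all HA1 libraries, and the log2 fold change was 0.69 ± 0.31 (edgeR adjusted p = 0.32).

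The authors' deposited table, which uses DESeq2 with a false discovery rate of 0.01 and a fold of 2, has a value for 56 of the 111 genes in HA1 against CK. It lists 5 of these 56 as higher and 12 as lower, out of 1961 higher and 1916 lower genes in all. Of those 17, 12 also passed the edgeR test, and the lower ones include chalcone isomerase 3, Rru04G017220 and anthocyanidin reductase. For HA2 against CK the authors' deposited table lists 2 as higher, Rru06G009840 and Rru06G051830, and none as lower, out of 280 and 94 in all. For HA2 against HA1 the authors' deposited table lists 2 as higher, Rru07G021770 and Rru07G021930, out of 89 higher genes in all. Of the 111 genes, 56 have a value in HA2 against CK and 54 in HA2 against HA1. How many of all genes have a value was not counted, so no background share can be set beside these counts.

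Genes that supply or control the pathway were taken from lists of descriptions outside the 111. Polyketide synthase 1, a name from raspberry, was the description of 3 abundant genes with adjacent gene numbers, and the closest match of 1 of them (Rru01G001970) among all proteins was a chalcone synthase. The most abundant by FPKM (Rru01G001950, mean 164 FPKM) had 635, 270 and 81.9 CPM in HA2 libraries, 268, 192 and 104 CPM in HA1 libraries, and 689, 347 and 140 CPM in CK libraries. CK replicate 1 was the highest library, as for the core genes, and HA2 replicate 3 the lowest. None of the 3, of which Rru01G001960 had the lowest p in HA1, passed, with log2 fold changes of -1.34 to -1.05 in HA1 and -0.64 to -0.25 in HA2. These genes were added after the files were seen.

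Upstream, trans-cinnamate 4-monooxygenase (Rru05G065420), the second enzyme of phenylpropanoid synthesis, had 296, 307 and 303 CPM in HA1 libraries against 666, 501 and 499 CPM in CK libraries. HA1 libraries agreed closely with each other and lay below all of CK, and the gene fell by 0.88 ± 0.19 on the log2 scale (edgeR adjusted p = 0.018). Phenylalanine ammonia-lyase 1 (Rru01G039610), the entry enzyme, had 447, 596 and 562 CPM in HA2 libraries, 267, 340 and 342 CPM in HA1 libraries, and 543, 480 and 578 CPM in CK libraries. It fell by 0.75 ± 0.21 in HA1 (edgeR adjusted p = 0.034), and the HA2 libraries lay around the CK libraries. None of 3 tested 4-coumarate-CoA ligases, which activate coumaric acid, passed, with log2 fold changes in HA1 of -0.68 ± 0.23 for Rru04G015260 (edgeR adjusted p = 0.063) and -0.79 ± 0.75 for Rru01G056440 (edgeR adjusted p = 0.47).

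Acetyl-CoA carboxylase makes malonyl-CoA, the other substrate of chalcone synthesis. Which of its genes serve that synthesis is not shown by their descriptions. Of 2 tested genes the biotin carboxyl carrier protein of the chloroplast enzyme (Rru02G072470) had 48.4, 43.7 and 42.6 CPM in HA1 libraries against 25.0, 28 and 26.5 CPM in CK libraries. It rose by 0.76 ± 0.14 on the log2 scale without overlap (edgeR adjusted p = 0.013). Acetyl-CoA carboxylase 1 (Rru07G057330) had 101, 119 and 101 CPM in HA1 libraries against 414, 194 and 165 CPM in CK libraries, and its log2 fold change of -1.27 ± 0.41 did not pass (edgeR adjusted p = 0.054). A low gene described as 2-oxoglutarate-dependent dioxygenase ANS (Rru07G010230), at a mean of 0.388 FPKM, had a log2 fold change of -0.62 ± 0.51 (edgeR adjusted p = 0.40).

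Of 18 tested regulators 1 rose and 7 fell in HA1, where 10.9% of all tested genes rose and 10.3% fell. The list was drawn by description words and is mixed in function. Rru03G024060, described as TRANSPARENT TESTA 9, was among those that fell (edgeR adjusted p = 0.034), and its description does not show that it regulates the pathway. Proanthocyanidin and anthocyanin genes are controlled in Arabidopsis by a complex of a MYB factor, a bHLH factor and the WD-repeat protein TTG1. TTG1 (Rru01G055460) had 108, 120 and 122 CPM in HA1 libraries against 36.0, 46.9 and 34.1 CPM in CK libraries and rose by 1.58 ± 0.21 (edgeR adjusted p = 0.0091). Of 4 tested genes described as MYB123, a MYB factor named from kiwifruit, 2 fell. Rru06G055700, whose closest match among all proteins was named MYB8-like, had 15, 11.4 and 11.2 CPM in HA1 libraries against 53.3, 69.4 and 51.8 CPM in CK libraries. It fell by 2.21 ± 0.20 (edgeR adjusted p = 0.0067), and Rru06G062030 fell by 1.58 ± 0.47 (edgeR adjusted p = 0.043). The other 2, Rru02G055220 and Rru02G009690, had log2 fold changes of 0.64 ± 0.43 (edgeR adjusted p = 0.30) and 0.49 ± 0.68 (edgeR adjusted p = 0.63). BHLH42 (Rru06G042450), the name of a bHLH partner, had 61.6, 48.0 and 41.6 CPM in HA1 libraries against 85.6, 36.6 and 66.1 CPM in CK libraries and did not pass. Transcription factor CPC (Rru02G067210), a small MYB protein that in Arabidopsis competes for the complex, fell by 2.07 ± 0.47 (edgeR adjusted p = 0.021). Rru01G035760, of the same description, fell by 1.81 ± 0.46 (edgeR adjusted p = 0.028). All 8 regulator calls were lost without CK replicate 1.

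**Figure D5:**
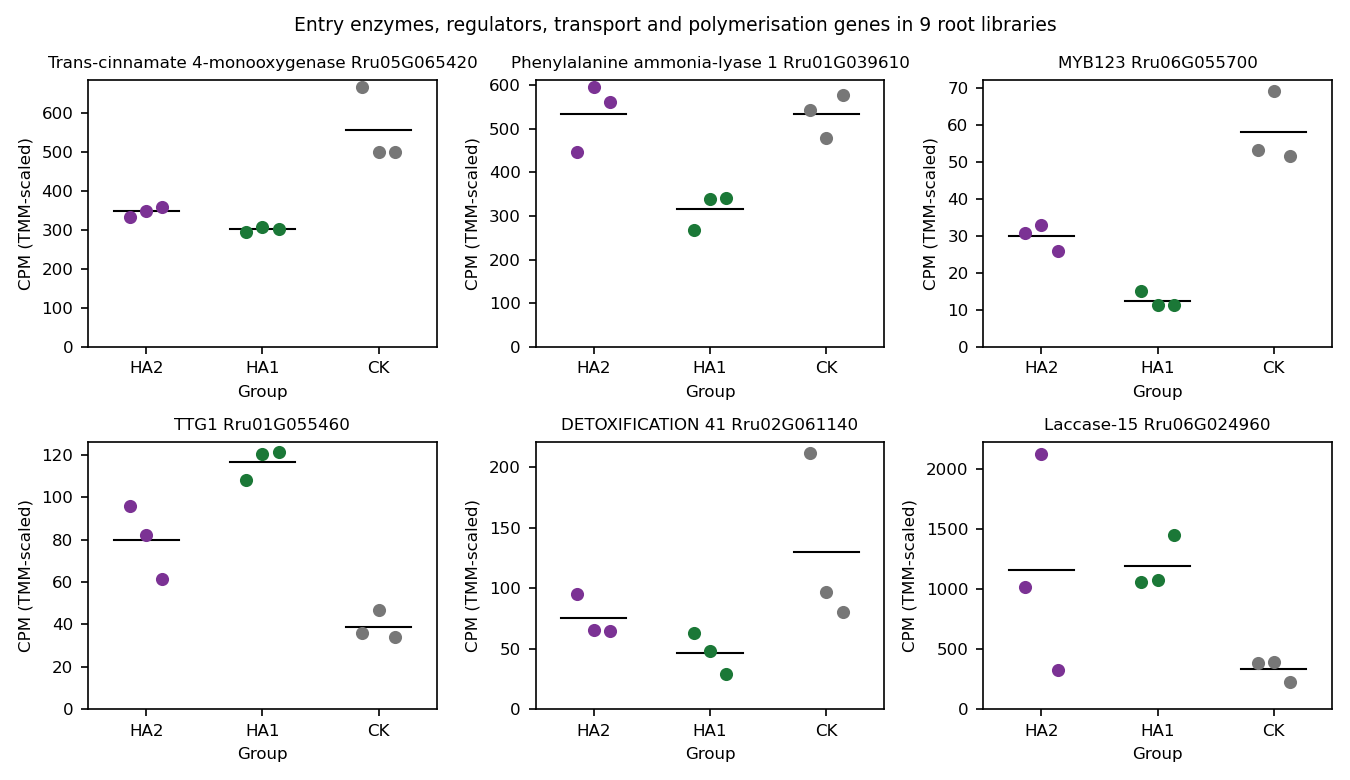
Each panel shows TMM-scaled CPM of 1 gene outside the list of 111 in the libraries of HA2, HA1 and CK, with bars at group means; axes start at 0. HA1 lies below CK without overlap for trans-cinnamate 4-monooxygenase, phenylalanine ammonia-lyase 1, the MYB123-described Rru06G055700 and DETOXIFICATION 41, and above it for TTG1 and laccase-15.

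Transport of flavan-3-ols into the vacuole and their polymerisation involve transporters of the DETOXIFICATION family and laccases in Arabidopsis seeds. Of 19 tested genes in this list 3 rose and 2 fell in HA1, against the same shares of all genes as for the regulators. The gene with the lowest p, a DETOXIFICATION 40 gene (Rru02G066960), had 2.15, 5.0 and 3.44 CPM in HA1 libraries against 0.977, 0.737 and 0.635 CPM in CK libraries and rose by 2.16 ± 0.55 (edgeR adjusted p = 0.028). Its namesake Rru02G066860 rose by 2.18 ± 0.57 (edgeR adjusted p = 0.030), and another, Rru05G002680, fell by 0.81 ± 0.24 (edgeR adjusted p = 0.042). DETOXIFICATION 41 (Rru02G061140), the name of the Arabidopsis tannin transporter TT12, had 62.5, 48.3 and 29.2 CPM in HA1 libraries against 211, 96.9 and 80.3 CPM in CK libraries and fell by 1.47 ± 0.41 (edgeR adjusted p = 0.036). Laccase-15 (Rru06G024960), the name of the Arabidopsis oxidase TT10, had 1015, 2132 and 324 CPM in HA2 libraries, 1063, 1079 and 1452 CPM in HA1 libraries, and 385, 390 and 229 CPM in CK libraries. All HA1 libraries lay above all CK libraries, and it rose by 1.84 ± 0.57 in HA1 (edgeR adjusted p = 0.049). HA2 replicate 3 lay within the CK range, and the HA2 log2 fold change of 1.79 ± 0.57 did not pass (edgeR adjusted p = 0.15).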

How the data were processed

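Polyadenylated RNA of 9 root libraries was sequenced in pairs of 150 bases, per the labels' protocols. Per the file headers, the deposited table gives each gene's whole-number counts and its FPKM in each library. It was made on the Biocloud platform, per the labels. Which aligner, counter, genome build and strand setting were used is not given in the sources used here. That deposited table also holds false discovery rates and log2 fold changes from DESeq2, per the file headers. Counts were tested with edgeR 4.0.16 in R 4.3.3: genes kept by filterByExpr on the group, TMM scaling, quasi-likelihood fit with 1 mean per group over all 9 libraries, two-sided tests, Benjamini-Hochberg adjustment over 25260 genes, threshold 0.05. CPM values are TMM-scaled, and SE is the size of the log2 fold change divided by the root of the F statistic. With TMM, 3 counts correspond to 0.0637 CPM to 0.0903 CPM. Deposited FPKM values served for levels between genes and for ratios within a library, with no test across genes. Python 3.11.15, pandas 2.3.3 and matplotlib 3.10.9 were used otherwise.

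The flavonoid genes and all lists were chosen with earlier results of these data known. Named genes are up to 10 rising and 10 falling genes past the threshold per comparison, the gene with the highest mean FPKM of each role, the 3 with the lowest p per comparison, and, of each outside list, the gene with the lowest p in HA1 against CK and that with the highest mean FPKM; others named, among them further core, regulator and transport genes, were chosen after their values were seen. No gene ID matched the RefSeq table, so no sequence or coordinate is shown. Alternatives were RLE size factors, DESeq2 1.42.0, 2 other count filters, the 6 libraries compared alone, a replicate block, core families alone, and leaving out each library. DESeq2 without HA2 replicate 3, and edgeR without CK replicate 1 and HA2 replicate 3, were added after the data were seen, as was a block on the 6 libraries of HA2 and CK. Deviations of same-numbered libraries of CK and HA2 from their group means correlated at 0.12, 0.11 and 0.32. Numbers were taken as pairs in that comparison for this reason, although the labels state no pairing. CK replicate 2 correlated as much with HA2 replicate 1, at 0.13, and HA1 replicate 3 with HA2 replicate 2 at 0.29. The other 6 same-numbered pairs lay under 0.1.

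The edgeR procedure was tested on simulated data in which few genes were changed. In the data themselves 21.2% of all tested genes passed for HA1 against CK. The adjustment is stricter where few genes change, so the shares found below do not measure how many real changes were found. In the simulation of HA1 against CK (24864 genes), 5% of the 2-fold and 56% of the 4-fold changes were found, and 1 of 62 calls was false. In that of HA2 against CK (24854 genes) the shares were 3% and 59%, and 5 of 67 calls were false. In that of HA2 against HA1 (24849 genes) they were 3% and 65%, and 2 of 70 calls were false.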

Additional observations from a re-analysis of the deposited data

Results flagged for a closer look

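In 2 genes described as flavonoid 3'-monooxygenase CYP75B137, every HA2 library lay above and every HA1 library below the CK mean. The share of all tested genes with this order was not counted. In Rru07G021770 the log2 fold change of HA2 over HA1 was 2.36, with 5.45, 4.08 and 17.0 CPM in HA2 libraries, 1.69, 1.84 and 1.64 CPM in HA1 libraries, and 3.40, 1.64 and 1.74 CPM in CK libraries (mean 2.26 CPM). HA1 thus overlapped CK in this gene, and CK replicate 1 raised the CK mean. Without HA2 replicate 3, its highest library, the log2 fold change of HA2 over HA1 was 1.47 by edgeR and 1.49 by DESeq2. In Rru07G021930 it was 1.90, with 2.26, 2.52 and 3.14 CPM in HA2 libraries, 0.548, 1.20 and 0.373 CPM in HA1 libraries, and 1.63, 2.30 and 2.16 CPM in CK libraries (mean 2.03 CPM). The test of HA2 against HA1 is the test of this difference, and neither gene passed in edgeR's quasi-likelihood test (Benjamini-Hochberg adjusted p = 0.18 for each). DESeq2 called both, with adjusted p of 0.0026 and 0.0033.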

How the results depend on the processing

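For HA1 against CK, 15 flavonoid genes passed. The count was 3 in the core families alone and 25 by DESeq2 without HA2 replicate 3, which called 8704 of all genes. Leaving out 1 library gave 0 to 19 flavonoid genes, 0 to 7003 of all genes, and a median log2 fold change of -0.62 to -0.42. For HA2 against CK, none passed. DESeq2 called 9 flavonoid genes and 2181 of all genes, and without HA2 replicate 3 15 and 4466. EdgeR without CK replicate 1 and HA2 replicate 3 called 2 and 340, with a median of 0.0071. Leaving out 1 library gave 0 to 8 flavonoid genes, 0 to 1834 of all genes, and a median of -0.28 to 0.021. The 1 gene of the table that passed was lost, leaving 0, with a filter of at least 1 CPM in at least 3 libraries, with the 6 libraries alone, and with the replicate block. For HA2 against HA1, DESeq2 called 4 flavonoid genes and 944 of all genes, and without HA2 replicate 3 3 and 469. The median was 0.27 with the replicate block, and 0.18 to 0.46 over leave-one-out fits. The cause of these shifts was not tested.

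Of 9 same-numbered pairs the 3 above 0.1 were those of CK and HA2, and the best partner had the same number for 3 of 9 libraries. With the replicate block 16 flavonoid genes passed in HA1 against CK, 0 in HA2 against CK and 0 in HA2 against HA1. The block over the 6 libraries of HA2 and CK gave 0 flavonoid genes and 0 of all genes. Of 530 values of named genes recomputed, 418 kept direction and side of the threshold, 79 lost the call and 32 gained it. In the other 1, leucoanthocyanidin reductase turned to -0.20 in HA1 against CK without CK replicate 3, within a range of -0.20 to 0.73 over the fits that left out 1 library. Depth was not far apart between libraries, and 3 libraries per group, with the several-fold spread of the core genes within groups, limit what can be called.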
